A study of Liolophura hirtosa with 16 samples.

Results

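Radula tissue at the calcium-deposited stage was set against radula tissue at the preceding iron-deposited stage in a chiton, Acanthopleura hirtosa (Liolophura hirtosa in the labels). The comparison took 8 of the 16 arrays of the series, chosen by their titles: 4 calcium radula arrays and 4 iron radula arrays. All RNA came from wild adults, 12 in all, and each array held a pool of equal parts of RNA from 3 animals. The remaining arrays, 4 of immature radula and 4 of foot muscle, give levels for orientation and share the estimate of spread. Each array carried 2240 probes of 35 to 40 bases on 493 chiton sequences, of which 109 carry contig names and 384 carry the names of clones.

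A chiton scrapes rock with the radula, a ribbon of teeth made continuously at its rear end, so that position along the ribbon stands for tooth age. The youngest teeth are an organic frame built on chitin. The epithelium around the teeth then loads the cusps with iron, first as ferrihydrite, which turns into magnetite, and in Acanthopleura the core of the tooth is afterwards filled with a calcium mineral. The comparison asks which transcripts of this tissue differ between the later step and the earlier one. The files pair no sequence with a gene name, so the sequences themselves are shown, no function is given to any of them, and the labelled tissue could not be checked against marker genes. In tissue of this kind, fewer cells of a type and less RNA per cell cannot be told apart.

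The deposited sources gave 2 identities for 2 of the 4 calcium arrays. The scanner files recorded for calcium replicates 2 and 4 held the values that the authors' value table lists for immature replicates 2 and 4, and the reverse. The identities of the value table were used here, and the counts of called probes and sequences and the differences at the probes shown were also computed without the 4 disputed arrays, which leaves 2 calcium arrays against 4 iron arrays. With the value table's identities, calcium arrays correlated with each other across probes at a Pearson r of 0.950 to 0.988, and with iron arrays at 0.838 to 0.881. Iron arrays correlated with each other at 0.969 to 0.985. Immature arrays correlated with calcium arrays at 0.717 to 0.778 and with each other at 0.973 to 0.990, so that with these identities no array labelled calcium or immature was closer to the other tissue than to its own. The median foreground of the 8 arrays lay between 204 and 424 intensity units, and no array had over 2 probes at the highest value that the scanner records. A level below is the log2 of a probe's ratio to the mean of its array after quantile scaling, so that 0 is about the array mean. With no background measurement, differences at dim probes understate the change in RNA, and the number of arrays limits the precision.

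Among called probes, the largest fall from iron-deposited to calcium-deposited tissue was -5.48 on the log2 scale, and the largest rise was 3.63. Not all sequences that fell were dim in calcium-deposited tissue. The 8 sequences with the deepest fall, chosen by the median difference over their probes, are each shown by the probe closest to that median, since this probe carries the values that follow. Positions are bases within the sequence.

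Contig[0058], bases 329 to 363: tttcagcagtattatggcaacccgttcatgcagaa
Contig[0267], bases 625 to 659: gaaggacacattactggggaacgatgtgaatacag
Contig[0158], bases 73 to 107: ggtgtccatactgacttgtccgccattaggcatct
Contig[0064], bases 994 to 1028: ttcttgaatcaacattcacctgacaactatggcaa
PlateF-B2-5-SMART, bases 65 to 99: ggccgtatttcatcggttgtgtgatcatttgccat
Contig[0002], bases 986 to 1020: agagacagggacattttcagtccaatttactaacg
Contig[0154], bases 130 to 167: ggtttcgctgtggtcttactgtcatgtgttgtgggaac
PlateD-G3-5-SMART, bases 151 to 186: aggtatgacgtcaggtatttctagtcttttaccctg

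The 8 sequences with the largest rise, chosen and shown in the same way, were these.

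Contig[0288], bases 217 to 251: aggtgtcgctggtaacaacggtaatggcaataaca
Contig[0222], bases 238 to 272: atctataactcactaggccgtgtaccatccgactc
Contig[0179], bases 480 to 514: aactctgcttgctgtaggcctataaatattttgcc
Contig[0041], bases 138 to 172: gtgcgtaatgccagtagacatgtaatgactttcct
PlateF-A10-5-SMART, bases 311 to 345: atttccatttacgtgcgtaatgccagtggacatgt
PlateA-H4-5-SMART, bases 49 to 83: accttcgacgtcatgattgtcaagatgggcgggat
PlateC-C10-5-SMART, bases 461 to 495: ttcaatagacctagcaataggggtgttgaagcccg
PlateC-A5-5-SMART, bases 161 to 195: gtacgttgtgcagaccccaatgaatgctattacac

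Contig[0058] had the deepest fall in this ranking. At the probe shown, its level was -0.96, -0.96, -0.92 and -1.04 in the 4 calcium arrays, against 4.12, 4.18, 4.18 and 4.39 in the 4 iron arrays. All calcium arrays lay close together and far below all iron arrays. The probe was 36.5-fold lower in calcium (limma log2 difference -5.19, SE 0.09, adjusted p = 2.32e-16) and 35.5-fold lower without the disputed arrays. Its level was 1.75 ± 0.07 in immature radula and -1.54 ± 0.19 in foot muscle (SD, n = 4 each), so calcium lay above muscle and below immature radula. At the probe at bases 721 to 755, calcium lay further above muscle, at 0.02 against -1.80. The other 4 probes of the sequence were lower in calcium by 15.0-fold, 44.6-fold, 10.4-fold and 43.1-fold in order along the sequence, and averaged over its 5 probes the fall was 25.6-fold (log2 -4.68, SE 0.08).

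At the probes shown for Contig[0267] and Contig[0064], calcium was about as dim as foot muscle, and iron was the brightest tissue. At bases 625 to 659 of Contig[0267], the level was -1.26, -1.34, -1.72 and -1.81 in calcium arrays, against 1.12, 1.50, 2.50 and 2.66 in iron arrays. The iron arrays fell into a lower and a higher pair there (SD 0.75). Calcium levels went down with replicate number where iron levels went up, so the 4 same-numbered differences ran from -4.47 to -2.38. The probe was 11.1-fold lower in calcium (limma log2 difference -3.48, SE 0.28, adjusted p = 7.05e-08), and it averaged -1.43 ± 0.27 in foot muscle (SD, n = 4). At bases 994 to 1028 of Contig[0064], the level was -1.97, -1.99, -1.80 and -1.78 in calcium arrays, against 0.51, 0.56, 0.65 and 1.07 in iron arrays. Calcium was 5.99-fold lower (limma log2 difference -2.58, SE 0.14, adjusted p = 6.34e-10), at a level beside the -1.92 ± 0.22 of foot muscle (SD, n = 4). At bases 580 to 617 of Contig[0064], calcium was below muscle, at -1.82 against -1.27. Without the disputed arrays, the falls were 10.5-fold and 5.79-fold.

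Contig[0158], PlateF-B2-5-SMART and PlateD-G3-5-SMART were high in iron-deposited tissue and lower in each of the other tissues. At bases 73 to 107 of Contig[0158], calcium arrays had 0.60, 0.67, 0.04 and 0.39, against 3.22, 3.25, 2.85 and 2.76 in iron arrays, a 6.03-fold fall (limma log2 difference -2.59, SE 0.15, adjusted p = 1.61e-09). Immature radula, at 0.75 ± 0.06, and foot muscle, at 0.31 ± 0.25 (SD, n = 4 each), were close to the calcium level. At bases 65 to 99 of PlateF-B2-5-SMART, calcium arrays had 0.02, -0.08, -0.26 and -0.02, against 2.04, 2.14, 1.77 and 1.95 in iron arrays. This was a 4.17-fold fall (limma log2 difference -2.06, SE 0.11, adjusted p = 5.38e-10) to a level somewhat above immature radula, at -0.68 ± 0.25 (SD, n = 4). At bases 151 to 186 of PlateD-G3-5-SMART, calcium arrays had -0.30, -0.66, -0.38 and -0.50, against 1.49, 1.31, 1.55 and 1.38 in iron arrays. The fall was 3.71-fold (limma log2 difference -1.89, SE 0.10, adjusted p = 4.03e-10), and the calcium level stayed above the -2.00 ± 0.10 of immature radula and the -1.93 ± 0.18 of foot muscle (SD, n = 4 each). Without the disputed arrays, the falls at these 3 probes were 6.34-fold, 4.24-fold and 3.39-fold.

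The probe shown for Contig[0154] was bright in both stages, whereas those at bases 17 to 51 and 66 to 103 were dim in both, at -1.51 and -1.70 in calcium against -0.49 and -0.40 in iron. At bases 130 to 167, it had 3.88, 3.47, 2.73 and 2.76 in calcium arrays, against 6.20, 5.28, 4.92 and 4.92 in iron arrays. Both groups spread widely (SD 0.56 and 0.60), and arrays of the same replicate number were high or low together, so that the 4 same-numbered differences ran only from -2.32 to -1.82. Calcium was 4.35-fold lower (limma log2 difference -2.12, SE 0.29, adjusted p = 3.57e-05) and 4.18-fold lower without the disputed arrays.

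Contig[0002] was lower in calcium than in all other tissues. At bases 986 to 1020, it had 0.10, 0.09, 0.81 and 0.11 in calcium arrays, against 2.25, 2.10, 2.29 and 3.06 in iron arrays. Calcium replicate 3 stood above the other calcium arrays and below every iron array. Immature radula had 1.89 ± 0.23 and foot muscle 1.73 ± 0.50 (SD, n = 4 each), much nearer to iron than to calcium. The fall was 4.43-fold (limma log2 difference -2.15, SE 0.25, adjusted p = 6.55e-06) and 3.88-fold without the disputed arrays, and the 5 probes of the sequence fell by similar amounts (log2 -2.29 to -1.96). With the scanner files as recorded, its difference was -1.23 and was not called (limma adjusted p = 0.237), whereas the other 7 falls shown were called there too.

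Fewer sequences rose strongly at calcium deposition, and Contig[0288] led them. The 8 rises shown were called with the value table's identities and also without the disputed arrays (the highest limma adjusted p was 0.00376). With the scanner files as recorded, the differences at these probes were 0.31 to 1.15 on the log2 scale. None was called there (the lowest limma adjusted p was 0.205). At bases 217 to 251, Contig[0288] had 2.31, 2.16, 2.41 and 2.56 in calcium arrays, against -0.55, -0.54, -0.54 and -0.82 in iron arrays. Every calcium array was far above every iron array. The rise was 7.85-fold (limma log2 difference 2.97, SE 0.12, adjusted p = 1.70e-11) and 7.80-fold without the disputed arrays. Immature radula had -1.23 ± 0.09 and foot muscle -0.18 ± 0.25 (SD, n = 4 each), so calcium was the brightest of the tissues. The other 3 probes rose by 2.77-fold, 12.3-fold and 9.57-fold in order along the sequence, and the rise averaged over the 4 probes was 7.12-fold.

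Contig[0222] also rose, but its brightest tissue was foot muscle. At bases 238 to 272, calcium arrays had 1.11, 0.85, 0.70 and 1.24, against -0.94, -0.88, -0.61 and -1.04 in iron arrays. The rise was 3.59-fold (limma log2 difference 1.84, SE 0.17, adjusted p = 3.79e-07) and 3.40-fold without the disputed arrays. Foot muscle was higher still, at 3.14 ± 0.36, and immature radula lower, at -1.96 ± 0.21 (SD, n = 4 each). PlateA-H4-5-SMART and PlateC-A5-5-SMART had a smaller version of this order, with foot muscle above iron but not above calcium. Contig[0288], too, had foot muscle above iron and below calcium at each of its probes. At bases 49 to 83 of PlateA-H4-5-SMART, calcium arrays had 0.55, 0.32, 1.01 and 0.90, against -1.11, -1.21, -0.90 and -1.01 in iron arrays, a 3.38-fold rise (limma log2 difference 1.76, SE 0.14, adjusted p = 6.31e-08). The other probes of PlateA-H4-5-SMART rose by 1.95-fold, 1.87-fold and 4.18-fold in order along the sequence. Averaged over its probes, the rise was 2.68-fold. At bases 161 to 195 of PlateC-A5-5-SMART, calcium arrays had 0.38, 0.27, 0.35 and 0.32, against -0.73, -0.78, -0.69 and -0.79 in iron arrays, a 2.11-fold rise (limma log2 difference 1.08, SE 0.07, adjusted p = 1.42e-08). The foot muscle levels at these probes of PlateA-H4-5-SMART and PlateC-A5-5-SMART were -0.05 ± 0.22 and 0.31 ± 0.16 (SD, n = 4 each). The part that muscle RNA in the calcium section might have in these rises was not tested.

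At 4 of its 5 probes, Contig[0179] was above the array mean in all 3 radula sections, and at all of them it was dimmest in foot muscle. The exception was the probe at bases 551 to 588, at -0.55 in calcium and -1.44 in iron. At bases 480 to 514, it had 2.92, 3.37, 3.47 and 3.58 in calcium arrays, against 1.38, 1.61, 1.83 and 1.91 in iron arrays. It rose by 3.14-fold (limma log2 difference 1.65, SE 0.15, adjusted p = 2.40e-07) and by 2.81-fold without the disputed arrays. Immature radula had 2.05 ± 0.20, between both stages, and foot muscle -1.02 ± 0.12 (SD, n = 4 each).

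**Figure D1:**
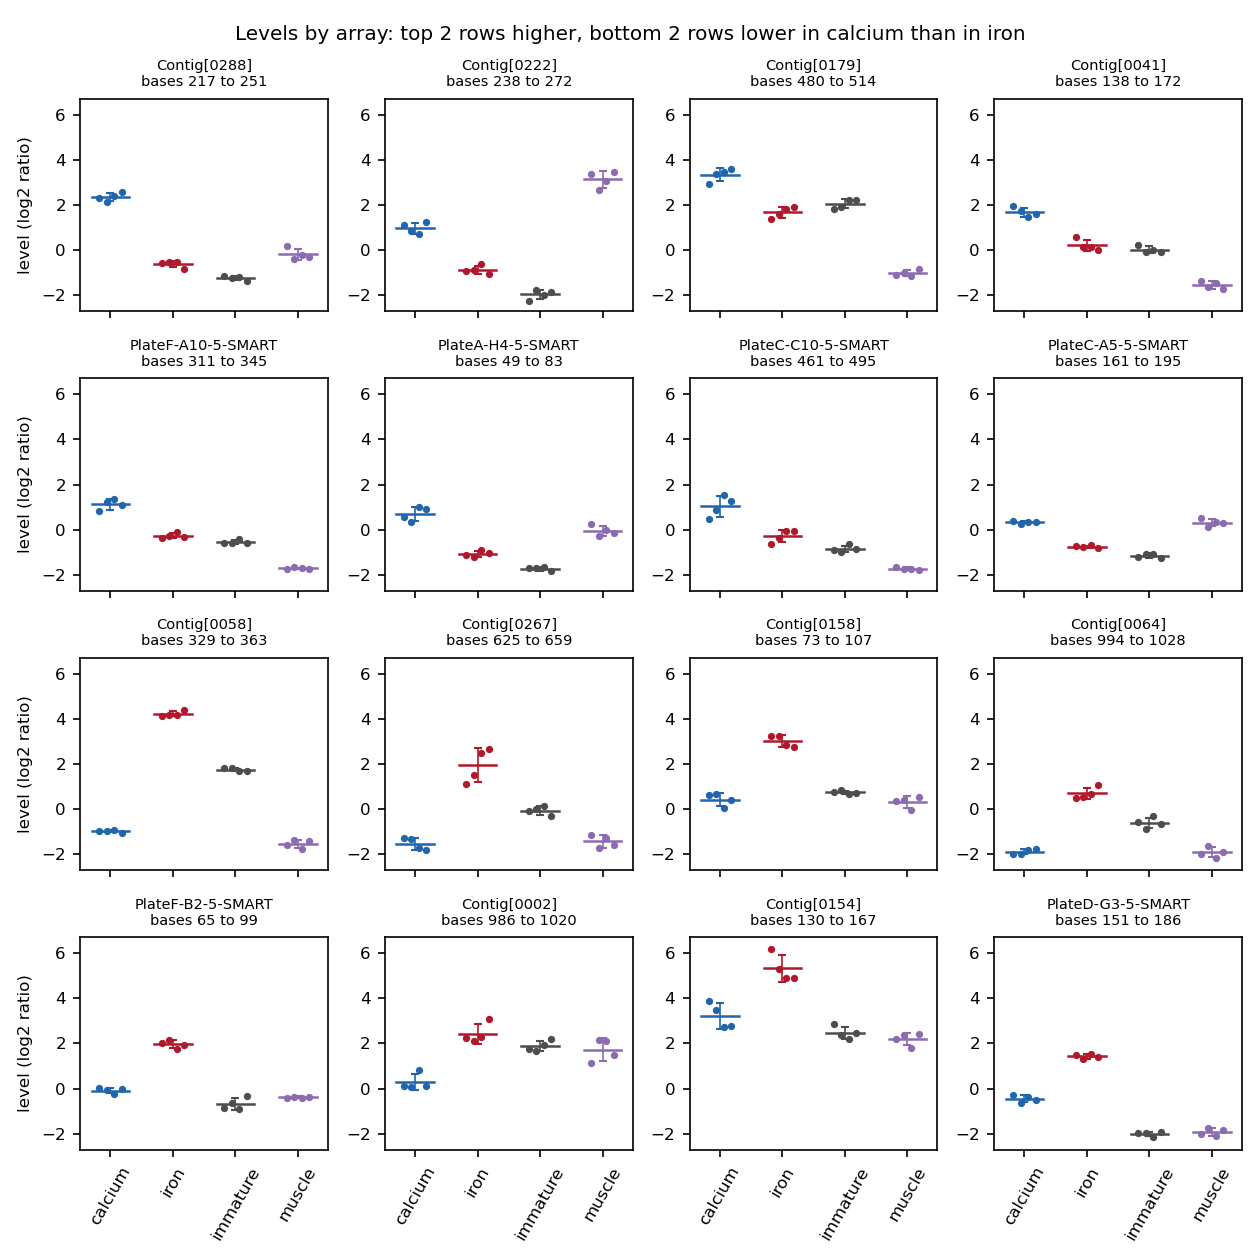
Level of the 16 named probes in each array (vertical axis, log2 of the ratio to the array mean after quantile scaling) for calcium, iron, immature and foot muscle arrays, with the mean as a line and the SD as a bar (n = 4 each). No calcium array overlaps an iron array in any panel, because the sequences were chosen on that condition. Foot muscle is the highest tissue for Contig[0222].

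The other 3 rising sequences, Contig[0041], PlateF-A10-5-SMART and PlateC-C10-5-SMART, were related to each other in sequence. When all probes were searched for runs of at least 18 bases shared between different sequences, a search added after the values were seen, 6 groups of sequences were found that held 16 sequences. One group held these 3 and Contig[0258]. A run of 19 bases joins Contig[0041] to PlateF-A10-5-SMART and Contig[0258] and is in capitals here.

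Contig[0041], bases 138 to 172: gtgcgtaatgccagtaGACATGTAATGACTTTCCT
PlateF-A10-5-SMART, bases 332 to 366: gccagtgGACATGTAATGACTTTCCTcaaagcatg
Contig[0258], bases 295 to 334: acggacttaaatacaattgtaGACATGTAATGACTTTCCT

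All 4 sequences were among those chosen because every probe was called higher in calcium, so their 17 called probes are a description (12.5% of all probes were called higher). Of the 4 probes of Contig[0258], 2 were called higher in the deposited ratios without further scaling, and 3 under median or cyclic loess scaling. Calcium was the highest tissue and foot muscle the lowest at each of the 17 probes. At bases 138 to 172 of Contig[0041], calcium arrays had 1.95, 1.72, 1.45 and 1.59, against 0.57, 0.16, 0.15 and -0.0045 in iron arrays, a 2.75-fold rise (limma log2 difference 1.46, SE 0.13, adjusted p = 2.99e-07). At bases 311 to 345 of PlateF-A10-5-SMART, calcium arrays had 0.82, 1.21, 1.35 and 1.09, against -0.37, -0.28, -0.11 and -0.33 in iron arrays, a 2.62-fold rise (limma log2 difference 1.39, SE 0.09, adjusted p = 1.03e-08). At bases 461 to 495 of PlateC-C10-5-SMART, calcium arrays had 0.46, 0.89, 1.52 and 1.27, against -0.63, -0.39, -0.04 and -0.06 in iron arrays, a 2.49-fold rise (limma log2 difference 1.31, SE 0.18, adjusted p = 4.00e-05). Under median scaling, the probe of PlateC-C10-5-SMART was not called (limma adjusted p = 0.0559). Without the disputed arrays, the rises were 2.77-fold, 2.55-fold and 2.40-fold.

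The probes of Contig[0258] did not give equal differences. The probe at bases 138 to 172 rose by 0.32 on the log2 scale (limma adjusted p = 0.0466) and was dim in both stages, at -1.53 in calcium and -1.85 in iron. The other 3 probes of Contig[0258] rose by 0.47 to 1.53. The sequences of this group can share target RNA, so they are not independent observations of a rise. A different group paired Contig[0018] with Contig[0110] through a run of 20 bases, and these went opposite ways. All 4 probes of Contig[0018] were called lower in calcium (log2 -1.60 to -0.96), whereas 3 of the 4 probes of Contig[0110] were called higher (all 4 between 0.26 and 0.52). With the scanner files as recorded, none of these 8 probes was called (lowest limma adjusted p = 0.0599), and without the disputed arrays the probe of Contig[0110] at bases 33 to 67 was not called (limma adjusted p = 0.332). The probes that hold the shared run are these.

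Contig[0018], bases 204 to 238: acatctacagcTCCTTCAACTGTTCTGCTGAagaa
Contig[0110], bases 302 to 336: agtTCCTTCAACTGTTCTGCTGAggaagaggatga

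The probe on Contig[0018] was 1.95-fold lower in calcium (limma adjusted p = 0.000622), and that on Contig[0110] differed by log2 0.26, which did not pass the test (limma adjusted p = 0.211).

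**Figure D2:**
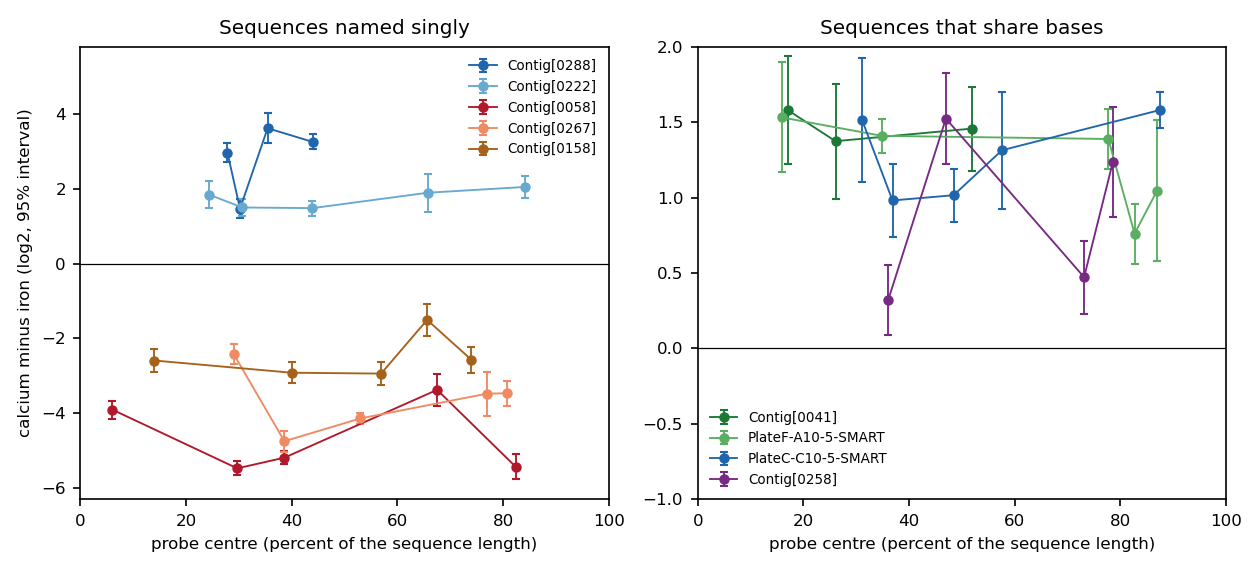
Difference between calcium and iron (log2, with its 95% interval, vertical axis) for each probe by the place of its centre along the sequence (percent of sequence length, horizontal axis), for 5 sequences named singly (left) and the 4 that share bases (right). Probes of a sequence lie on one side of 0, as the choice of sequences required. Their differences vary in size, from -5.48 to -3.38 on Contig[0058] and from 0.32 to 1.53 on Contig[0258].

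Over all 2240 probes, limma called 281 higher in calcium (12.5%) and 241 lower (10.8%) at an adjusted p under 0.05. The calls lay on 105 sequences with a rise and 75 with a fall, and 0 sequences had probes called in both directions, although the probes of a sequence were tested singly. Averaged over the probes of a sequence, 97 of the 493 sequences were called higher (19.7%) and 69 lower (14.0%). The falls were the larger. Calls past 2-fold numbered 54 higher, on 24 sequences (2.41% of all probes), and 94 lower, on 33 sequences (4.20%). Calls past 4-fold numbered 6 higher, on 4 sequences, and 41 lower, on 14 sequences. Those 6 were 3 probes of Contig[0288] and 1 each of Contig[0222], PlateA-H4-5-SMART and Plate-C-F10-5-SMART, the last named after its values were seen (bases 57 to 91, log2 2.20, SE 0.17). Plate-C-F10-5-SMART, too, was brightest in foot muscle, at 3.29, against 1.86 in calcium and -0.35 in iron. Past 8-fold there were 2 probes higher, both on Contig[0288], and 12 lower, on Contig[0058], Contig[0267], Contig[0064] and PlateD-E2-5-SMART, the last named after its values were seen. The median called difference was 0.60 for rises and -0.80 for falls, against 0.03 over all probes. The fit behind these counts took the arrays as unpaired. With the replicate number as a block, 397 probes were called higher and 282 lower.

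**Figure D3:**
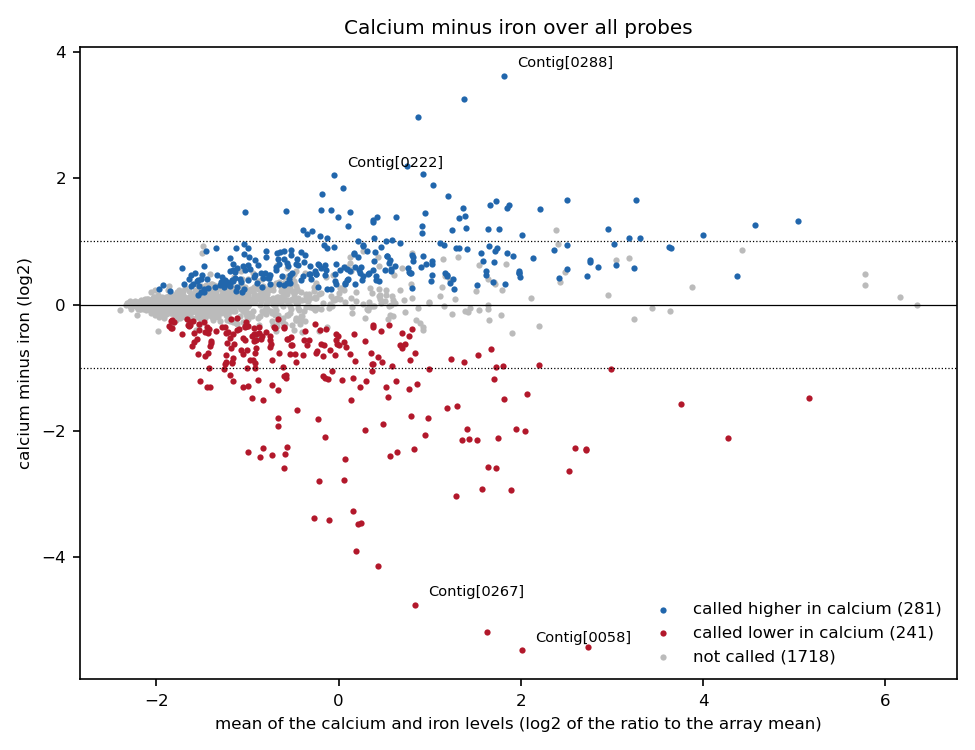
Difference between calcium and iron (vertical axis, log2) against the mean level of both stages (horizontal axis, log2 of the ratio to the array mean) for each of the 2240 probes, with called probes in colour and dotted lines at a 2-fold difference. Most called rises stay within 2-fold, whereas falls reach -5.48 on Contig[0058].

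All 4 calcium arrays lay above all 4 iron arrays at 278 probes (12.4%) and below them at 238 (10.6%). Of the called probes, 246 of the 281 rises and 219 of the 241 falls had groups that did not overlap. Without the disputed arrays, 206 of the 281 rises and 186 of the 241 falls were called again, and none had changed sign. With the scanner files as recorded, where 2 of the calcium files hold what the value table lists as immature arrays, 22 of the 281 rises and 157 of the 241 falls were called, and 27 of the rises and 34 of the falls had the opposite sign.

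The numbers of small rises and of small falls depended on how arrays were scaled. Quantile scaling gave 281 higher and 241 lower, cyclic loess 155 and 252, median scaling 98 and 186, scaling to the 75th percentile 174 and 168, and the deposited ratios without further scaling 160 and 171. The median difference over all probes was 0.21 under the 75th percentile, 0.15 in the deposited ratios and 0.09 under median scaling. It was 0.03 under quantile scaling and 0.009 under cyclic loess. Under cyclic loess, 1 probe called higher under quantile scaling was called lower. Calls past 2-fold moved less, between 40 and 60 higher and between 93 and 114 lower over these 5 scalings. Called in the same direction under all 5 were 75 probes higher, on 28 sequences, and 149 lower, on 52 sequences. Of these, 41 of the 54 rises and 92 of the 94 falls past 2-fold were included, against 34 of 227 smaller rises and 57 of 147 smaller falls.

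**Figure D4:**
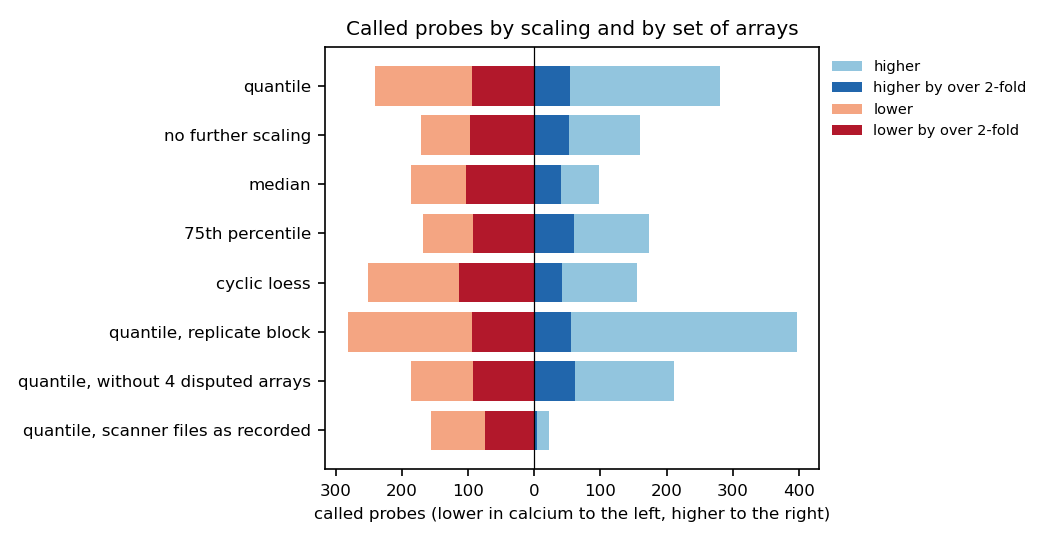
Number of called probes (horizontal axis, lower in calcium to the left and higher to the right) under each scaling and set of arrays, with those past 2-fold in the darker shade. Falls past 2-fold stay between 93 and 114 over the 5 scalings, and with the scanner files as recorded 4 rises past 2-fold are left.

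Of the 471 sequences with at least 3 probes, 20 had all probes called higher and 26 had all called lower. In the fit with the replicate number as a block, 44 sequences had all probes called higher and 33 lower. In 15 of the 20 and 23 of the 26, the calcium and iron arrays also did not overlap at any probe, and the 16 sequences shown were taken from these. The other 7 rises had medians over their probes of 0.75 to 1.11, and the other 15 falls of -1.81 to -0.57.

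Set beside the tissues outside the comparison, rises and falls had different orders of level. Among the 15 sequences with a rise at every probe, immature radula, averaged over probes, was below both stages in 11 and between them in 4. Foot muscle was below both stages in 8, between them in 3 and above both in 4. Among the 23 with a fall at every probe, immature radula was below both stages in 5, between them in 12 and above both in 6. Foot muscle was below both in 14, between them in 9 and above both in 0. Over single probes, foot muscle was the highest of the 4 tissues in 116 of the 281 rises and 11 of the 241 falls, and in 1133 of all 2240 probes. Choosing a rise or a fall itself moves calcium and iron apart, so these orders are a description.

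Probes on contig-named sequences were called more often than probes on clone-named ones. Of 495 contig probes, 130 were called higher (26.3%) and 113 lower (22.8%), and of 1745 clone probes, 151 were higher (8.65%) and 128 lower (7.34%). Probes that rose and probes that fell had the same median GC content, 42.9%, against 42.1% over all probes. These shares have no test, since probes of a sequence share their target.

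Most probes differed little between the stages. The 95% interval of the difference lay within 0.5 of 0 on the log2 scale for 1508 probes (67.3%), of which 1462 were not called. Of the 1718 probes not called, 30 had an interval that reached past 2-fold. Of the sequences with probes above the median level, the 4 with the tightest intervals around 0 were Contig[0054], PlateD-H11-5-SMART, PlateC-G11-5-SMART and PlateA-B2-5-SMART. At bases 153 to 187 of Contig[0054], the level was -1.22, -1.45, -1.54 and -1.60 in calcium arrays, against -1.24, -1.39, -1.39 and -1.61 in iron arrays. The difference was -0.05 with a 95% interval of -0.29 to 0.19. This sequence was as dim in both stages as in foot muscle (-1.43 ± 0.09, SD, n = 4), so its narrow interval does not show an even level of RNA in the stages, and it met the level rule only through immature radula, where it reached 4.60 ± 0.22 (SD, n = 4). With the scanner files as recorded, its difference was 3.04 and was not called (limma adjusted p = 0.482). The probes shown for PlateD-H11-5-SMART, PlateC-G11-5-SMART and PlateA-B2-5-SMART differed by -0.02 (95% interval -0.36 to 0.32), -0.11 (-0.34 to 0.12) and 0.08 (-0.32 to 0.48). Averaged over probes, these sequences lay between -0.91 and -0.50 in both stages, below the array mean. Under cyclic loess scaling, PlateD-H11-5-SMART and PlateC-G11-5-SMART each had 1 probe called lower in calcium.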

How the data were processed

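Single-colour Cy5 arrays were measured on radula sections and foot muscle. Per the file headers, the authors' scanner files hold the mean and median foreground intensity of each spot, with no background column. The authors also deposited a table of ratios, and set against the scanner files each ratio was the mean foreground of a probe over the mean of all probes of its array, with no background correction. Scale and direction were thus recovered from the values. Extraction software and slides are not given in the sources used here.

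Here the log2 of the deposited ratios was quantile-scaled over all 16 arrays, with no pseudocount, and fitted with a mean per tissue in limma 3.58.1 (R 4.3.3; eBayes, two-sided). P-values were adjusted by Benjamini-Hochberg over all 2240 probes, and an adjusted p under 0.05 was called. The probes of a sequence were tested singly and again as their mean; 369 pairs of neighbouring probes overlap. P-values rest on the spread between arrays of a tissue. Each array is a pool, and in the main fit this spread also holds what same-numbered arrays share.

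Replicate numbers come from the titles. Deviations from the tissue means correlated between same-numbered calcium and iron arrays at 0.463 to 0.677 in the 4 pairs. Each array correlated best with its own number, so the numbers pair the arrays in some way. Unlike numbers also correlated within replicates 1 and 2 (0.445 and 0.406) and within replicates 3 and 4 (0.375 and 0.305). Between these sets of replicates, every r was negative, from -0.732 to -0.036. What sets them apart was not tested. The titles do not say what a number stands for. The main fit has no block, so its p-values leave this pairing out. With the replicate number as a block, 397 probes were called higher and 282 lower.

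Named sequences had at least 3 probes, all called in one direction with groups that did not overlap. They were ranked by the median difference over their probes, and the first 8 per direction were taken, plus the 4 even sequences. The rule also provided for sequences with probes called in opposite directions, of which there were 0. The comparison, rule and sequences were chosen with earlier results of these data known. The fit was also run on simulated data with independent noise in each array. Such data lack the correlation between same-numbered arrays, so that run cannot test the fit under it. Alternatives changed the scaling, background, source, arrays, blocks and probes. Gene lists could not be built, because the files hold no gene names. Runs of bases shared between sequences, other than those shown, are not reported here.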

Additional observations from a re-analysis of the deposited data

Results flagged for a closer look

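Of 40 groups of 4 arrays at the named probes, 2 held an array far from the other 3 by Dixon's criterion, which chance alone meets in about 1 in 20 groups. Contig[0288] at bases 217 to 251 had -0.82 in iron replicate 4, against -0.55 to -0.54 in the other iron arrays. Contig[0002] at bases 986 to 1020 had 0.81 in calcium replicate 3, against 0.09 to 0.11 in the other calcium arrays.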

How the results depend on the processing

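The 20 named probes were recomputed under 21 alternatives, and 410 of 420 values stayed on the same side of the threshold, and no called difference changed sign. Of the other 10, PlateC-C10-5-SMART was not called under median scaling, and 9 probes were not called with the scanner files as recorded. In that setting, limma called 22 probes higher and 157 lower, 4 of them higher by over 2-fold. It had all probes called higher in 0 sequences (8 at an unadjusted p under 0.05) and all lower in 13. Probes called higher numbered 160 in the deposited ratios, 98 under median scaling, 174 under the 75th percentile and 155 under cyclic loess. Sequences with all probes called higher numbered 12, 7, 15 and 13 in these settings, and sequences with all probes called lower numbered 17 under median scaling and 16 under the 75th percentile. Without the 4 disputed arrays, these sequences numbered 13 higher and 17 lower. With the replicate block, 397 probes were called higher and 282 lower, and 44 sequences had all probes called higher; the block changed the call of none of the named probes. Restricting the fit to probes above the median level gave 34 sequences with all tested probes higher, since fewer probes of each are tested. The mean over the probes of a sequence was called higher in 97 sequences and lower in 69, a count of sequences and not of probes. With 1 array left out, calls ran from 233 to 264 higher and from 218 to 253 lower. The cause of the differences between scalings was not tested.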
